A study of Mus musculus with 11 samples.

Results

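The repressor arm of the circadian clock was followed in the tibialis anterior (TA) muscle of 11 mice through 8 genes, the period genes Per1, Per2 and Per3, the cryptochromes Cry1 and Cry2, Gm129, Bhlhe40 and Bhlhe41. Gm129 is the older symbol of Ciart. Members were chosen by name, as every probe set of the array whose gene symbol is 1 of these 8. The rule found 9 of 28350 probe sets and 8 of 21759 gene symbols, with 1 probe set for each gene and 2 for Gm129. All 9 reached a mean signal of 30 in at least 1 group, the minimum above which 14494 probe sets were tested.

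Messenger RNA had been measured on Affymetrix Mouse Gene ST arrays, with a separate array for each mouse, in 3 C57 mice (wild type, strain C57/B10), 4 mdx mice left untreated and 4 given Pip6e-PMO. All were males of 14 weeks of age. The mdx strain (C57/Bl10ScSn-Dmd mdx/J) carries a nonsense mutation in the dystrophin gene, and untreated and treated mdx mice share it. Pip6e-PMO is a morpholino oligonucleotide joined to a cell-penetrating peptide that makes muscle skip the mutated exon, and the treated mice had been injected intravenously with 12.5 mg/kg, once, when 12 weeks old. The C57 and untreated mdx mice had received no treatment, so the vehicle was not matched. RNA came from whole cryosections of the mid-belly, which hold fibres together with every other cell of the muscle. No time of day of collection is given in the sources used here.

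The clock runs in muscle, as in nearly every tissue, as a transcriptional loop that takes about a day. A dimer of CLOCK or NPAS2 with BMAL1, the product of Arntl, binds E-box sequences and drives the Per and Cry genes, and PER and CRY proteins return to the nucleus as a complex that blocks the dimer. CIART is a further repressor recruited to the dimer, and BHLHE40 and BHLHE41 (DEC1 and DEC2) compete with it for E-boxes, while DBP, TEF and HLF act on D-box sequences in some of the same genes.

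Because the loop acts through these short sequences, the promoters of the members are shown before their values. RefSeq promoters of GRCm38.p6 were found for 6 of the 8 members, 7 promoters in all, since Per1 has 2 annotated starts. Per2 and Bhlhe40 had no entry. The E-box CACGTG, the related CACGTT, the D-boxes TTATGTAA and TTACGTAA, the cyclic AMP response element TGACGTCA and the ROR and REV-ERB half-site AGGTCA were searched on both strands of the window from 250 bases before to 50 bases after each start. The 250 bases before the start are printed for 5 promoters, with E-box, E-box-like and D-box matches in capitals, and no 2 matches overlapped. Ciart is shown for its 3 E-boxes, Per3 for its 2 D-boxes, Per1 for its single E-box, and Cry1 and Cry2 as a pair that differ in their E-boxes.
Ciart (Gm129), chr3:95882229-95882478, minus strand: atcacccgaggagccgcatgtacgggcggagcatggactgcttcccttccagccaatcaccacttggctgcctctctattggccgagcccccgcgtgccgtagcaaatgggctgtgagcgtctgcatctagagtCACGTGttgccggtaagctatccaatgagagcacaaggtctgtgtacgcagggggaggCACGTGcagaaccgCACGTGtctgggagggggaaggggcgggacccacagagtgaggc
Per3, chr4:151044666-151044915, minus strand: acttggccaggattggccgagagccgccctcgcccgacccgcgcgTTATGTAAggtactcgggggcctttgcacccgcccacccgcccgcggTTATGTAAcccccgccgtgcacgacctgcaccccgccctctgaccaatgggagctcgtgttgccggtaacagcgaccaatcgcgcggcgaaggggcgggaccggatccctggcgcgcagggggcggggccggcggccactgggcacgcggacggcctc
Per1, upstream start, chr11:69098699-69098948, plus strand: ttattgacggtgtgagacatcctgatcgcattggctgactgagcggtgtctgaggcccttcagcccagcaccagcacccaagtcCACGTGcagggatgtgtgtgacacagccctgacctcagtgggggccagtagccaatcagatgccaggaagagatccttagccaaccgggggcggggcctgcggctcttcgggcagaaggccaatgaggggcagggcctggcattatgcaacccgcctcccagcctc
Cry1, chr10:85185055-85185304, minus strand: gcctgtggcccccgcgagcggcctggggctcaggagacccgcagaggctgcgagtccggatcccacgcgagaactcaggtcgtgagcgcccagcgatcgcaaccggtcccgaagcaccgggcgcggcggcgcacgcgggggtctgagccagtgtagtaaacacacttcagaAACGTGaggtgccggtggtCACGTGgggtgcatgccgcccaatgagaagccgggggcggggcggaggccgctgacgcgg
Cry2, chr2:92434070-92434319, minus strand: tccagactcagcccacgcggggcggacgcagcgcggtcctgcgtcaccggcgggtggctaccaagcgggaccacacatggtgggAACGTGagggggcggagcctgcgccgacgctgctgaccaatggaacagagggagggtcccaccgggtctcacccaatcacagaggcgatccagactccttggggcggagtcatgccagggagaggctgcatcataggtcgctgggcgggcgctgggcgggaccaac

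The Ciart promoter held CACGTG 3 times, beginning at -116, -58 and -44 bases from the start, and 0.0883% of all 32851 promoters of the same length held it at least 3 times. At least 1 CACGTG stood in the promoters of Per1 (-166), Cry1 (-60) and Bhlhe41 (-153) too, against 7.15% of all promoters. Cry1 (-79) and Cry2 (-166) each held 1 CACGTT, printed as its reverse complement and found in 4.68% of promoters. Per3 had no match to CACGTG or CACGTT in this window but held TTATGTAA at -205 and -158, and 0.0213% of promoters held that D-box at least 2 times. Per1 also held 1 half-site at -137, a motif found in 16.3% of promoters. These matches are of letters only, and binding was not measured in these mice.

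**Figure D1:**
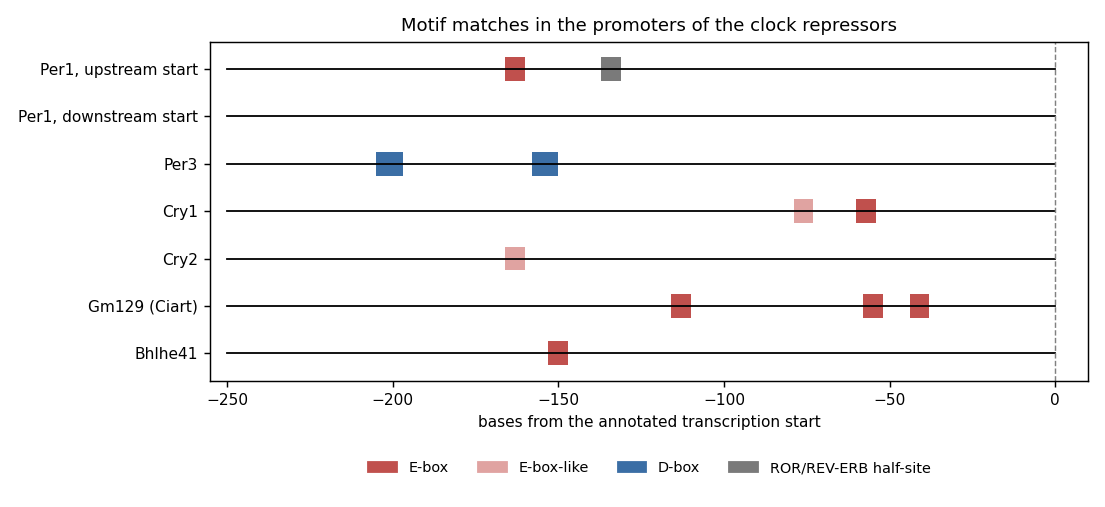
Motif matches in 7 promoters of 6 clock repressors, plotted by distance in bases from the annotated start, with each box drawn to its length. Gm129 (Ciart) has 3 E-boxes, Per3 has 2 D-boxes and no E-box, and the downstream start of Per1 has no match.

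The arrays were alike in brightness, with a median intensity of 27.5 to 28.6, and the number of arrays limits the precision. Treated mouse 2 stood apart, with a typical deviation from its group's mean of 0.285 on the log2 scale against 0.115 to 0.193 in the other 10 mice, and results of the treated group are therefore given without it as well. The paper reports the lowest therapeutic efficacy and the least mRNA restoration in its treated sample T2. If that sample is this mouse, values without it also leave out the weakest responder. The tissue label matched its markers: Ckm, Acta1, Myh4 and 5 further genes of fast fibres had log2 signals of 12.25 to 13.33 in every mouse, and 0 of the 8 passed the test in any comparison.

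In untreated mdx muscle the clock repressors were low as a group. Gm129 fell 9.72-fold, Per2 4.51-fold, Per3 3.02-fold, Cry2 1.93-fold and Bhlhe41 1.64-fold, whereas Per1 and Cry1 were lower without passing the test and Bhlhe40 overlapped the C57 range. Of the 9 probe sets, 6 were called lower and 0 higher at an adjusted p under 0.05, which is 5 of the 8 genes, against 4.96% of all tested probe sets called lower and 7.06% called higher. Those whole-array calls, 719 lower and 1023 higher, became 892 and 881 with each array centred on its median. They fell to 413 and 590 without C57 mouse 2 and grew to 900 and 1317 without treated mouse 2. In 8 of 9 probe sets every untreated mdx mouse lay below every C57 mouse, as did 11.3% of all tested probe sets. The median difference of the 9 probe sets was -1.51 on the log2 scale (-1.23 with 1 probe set per gene), beside -0.01 for all tested probe sets. In whole muscle, fewer cells of a type and less RNA per cell cannot be told apart. The time of day of collection is not given for any group, and its part in these differences was not tested.

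After Pip6e-PMO, Per3 was the member that passed the test against untreated mdx muscle. Of the 9 probe sets, 1 was called higher than in untreated mdx muscle and 0 lower, against 7.26% of all tested probe sets called higher and 3.88% called lower. This background was unsteady, with 1052 probe sets called higher and 563 lower in all mice, 2358 and 1745 without treated mouse 2, and 186 and 83 without treated mouse 4. All treated mice lay above all untreated mdx mice in that 1 probe set, as in 9.29% of all tested probe sets. All 9 differences were above 0, with a median of 0.24 on the log2 scale (0.22 with 1 probe set per gene) beside 0.02 for all tested probe sets. The difference of Per1 (0.04) turned to -0.22 without treated mouse 2 and to -0.21 with array weights. Against C57, 7 of 9 probe sets were called lower in treated muscle and 0 higher, which is 6 of the 8 genes, against 8.96% called lower and 15.6% called higher over all tested probe sets. With each array centred on its median, those whole-array calls split into 1875 lower and 1960 higher, where the values as deposited gave 1299 and 2265 (587 and 1306 without C57 mouse 3, 2005 and 2928 without treated mouse 2). Every treated mouse lay below every C57 mouse in 7 of the 9, as in 14.1% of all tested probe sets. The comparisons share their mice, so their counts are not independent of each other.

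**Figure D2:**
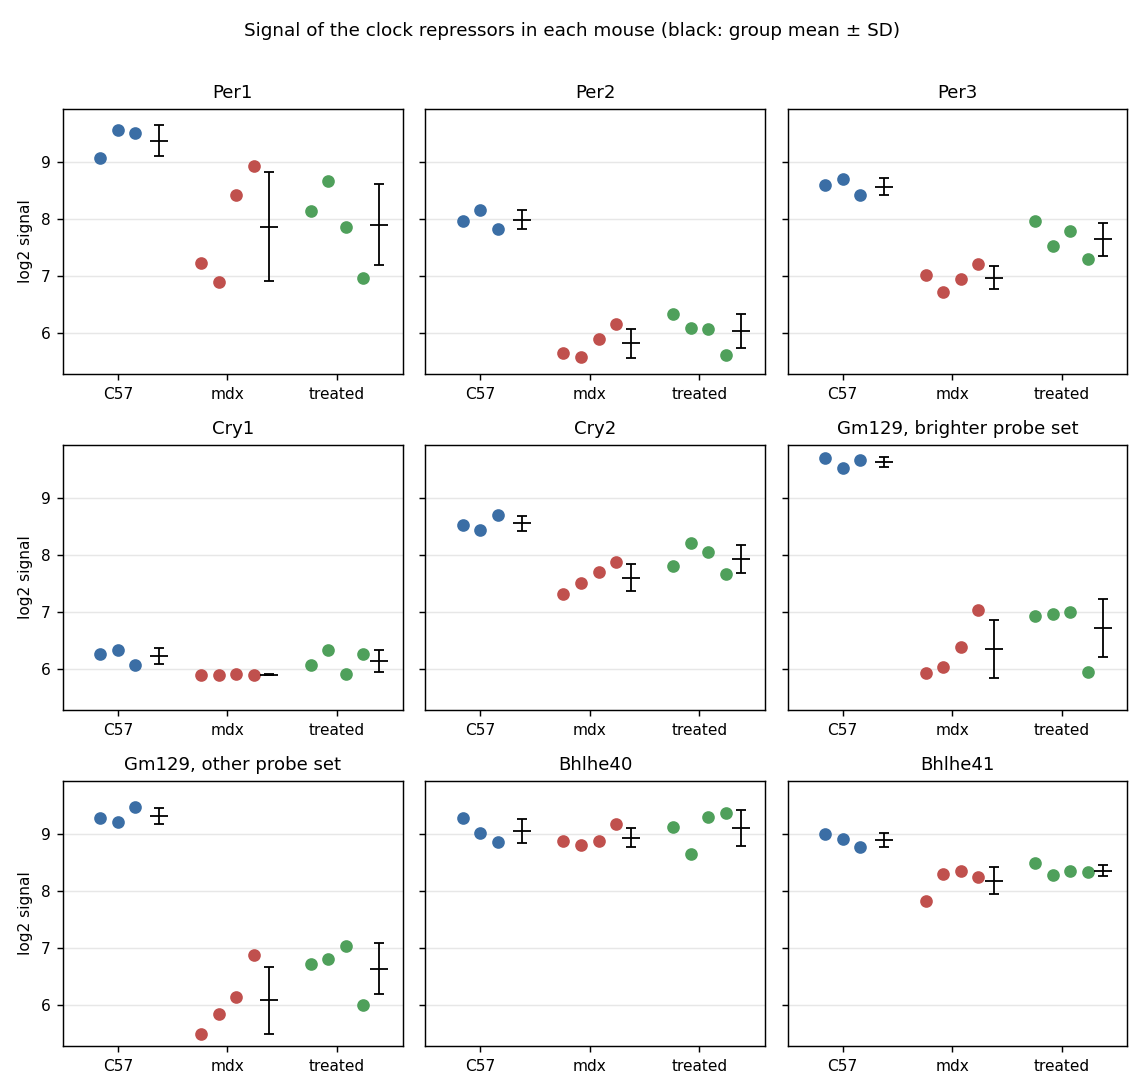
Log2 signal of the 9 probe sets by mouse (points) in C57 (n = 3), untreated mdx (n = 4) and Pip6e-PMO treated mdx (n = 4), with the group mean and SD in black. All untreated mdx points lie below all C57 points except for Bhlhe40, and the treated points lie above all untreated ones only for Per3.

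Per2 encodes the PER protein whose loss shortens and then abolishes rhythms in mice. Its log2 signal was 7.97, 8.16 and 7.83 in C57 mice, 5.64, 5.58, 5.89 and 6.15 in untreated mdx mice and 6.33, 6.09, 6.07 and 5.62 in treated mice. The C57 mice stood 1.68 above the highest untreated mdx mouse, and the treated mice overlapped the untreated ones. Per2 fell by 2.17 in mdx (SE 0.18, adjusted p = 2.14e-05), a 4.51-fold lower signal. Treated minus untreated mdx was 0.21 (95% confidence interval -0.14 to 0.57, adjusted p = 0.392), and treated minus C57 was -1.96 on the log2 scale (adjusted p = 5.86e-05). Without treated mouse 2 these were 0.19 (adjusted p = 0.434) and -1.98 (adjusted p = 0.000128).

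Per3 encodes the third PER protein, which is not needed for the rhythm itself and binds the same partners. The signals were 8.59, 8.70 and 8.41 in C57, 7.02, 6.72, 6.94 and 7.20 in untreated mdx, and 7.96, 7.52, 7.79 and 7.29 in treated mdx mice. The 3 groups did not overlap, with the treated mice between the other 2 and treated mouse 4 only 0.09 above the highest untreated mouse. Per3 fell by 1.60 in mdx (SE 0.16, adjusted p = 7.73e-05) and rose by 0.67 after treatment (SE 0.15, 95% confidence interval 0.35 to 0.99, adjusted p = 0.022), a 1.59-fold change. Treated minus C57 was -0.93 on the log2 scale (95% confidence interval -1.28 to -0.58, adjusted p = 0.00247). Without treated mouse 2 the difference from C57 was -0.89 (adjusted p = 0.00385) and the rise was 0.71 (adjusted p = 0.0104), but the call of the rise was lost without untreated mouse 3 (0.66, adjusted p = 0.055), treated mouse 1 (0.56, adjusted p = 0.0565) or treated mouse 3 (0.62, adjusted p = 0.0616), and by the methods' t-test (adjusted p = 0.12).

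Per1, the PER gene known to answer quickly to cyclic AMP and to glucocorticoids, was the most variable member. Its signals were 9.06, 9.55 and 9.51 in C57, 7.23, 6.90, 8.41 and 8.92 in untreated mdx, and 8.13, 8.66, 7.85 and 6.96 in treated mdx mice. Untreated mouse 4 lay near C57, only 0.14 below the lowest C57 mouse. Mouse 3 lay lower, at 8.41, and mice 1 and 2 lay far below. Its range of 2.02 among the untreated mdx mice was larger than that of 99.8% of all tested probe sets, whose median range was 0.32. The difference of -1.51 between mdx and C57 did not pass the test (95% confidence interval -2.53 to -0.49, adjusted p = 0.0564). It passed without untreated mouse 4 (-1.86, adjusted p = 0.0187), treated mouse 2 (adjusted p = 0.0391) or treated mouse 4 (adjusted p = 0.0403). It was also called under 6 of 12 other settings, among them array weights (adjusted p = 0.0127), centring on the median (adjusted p = 0.0493) and a trended and robust prior (adjusted p = 0.0472), with adjusted p up to 0.204 over the 12.

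Per1 hardly differed between treated and untreated mdx mice, at 0.04 with a 95% confidence interval of -0.91 to 0.98 (adjusted p = 0.965). Without treated mouse 2 the sign turned, at -0.22 (adjusted p = 0.731). Against C57 it was lower in treated muscle by the test (-1.47, adjusted p = 0.0387), and without treated mouse 2 the difference was -1.73 (adjusted p = 0.0172). That call was lost without C57 mouse 1, 2 or 3 (adjusted p = 0.0547, 0.113 and 0.118) and without treated mouse 1, 3 or 4 (adjusted p = 0.0585, 0.0743 and 0.094).

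Of the 2 cryptochromes, the most direct repressors of the loop, Cry2 passed the test in mdx and Cry1 did not. Cry2 had signals of 8.52, 8.44 and 8.69 in C57, 7.32, 7.51, 7.70 and 7.87 in untreated mdx, and 7.80, 8.21, 8.05 and 7.66 in treated mdx mice. All mdx mice, treated or not, lay below all C57 mice, and the treated range overlapped the upper part of the untreated range. Cry2 fell by 0.95 in mdx (SE 0.15, adjusted p = 0.00215), and treated minus untreated mdx was 0.33 (95% confidence interval 0.02 to 0.64, adjusted p = 0.139). Treated minus C57 was -0.62 on the log2 scale (adjusted p = 0.0146), a call lost without C57 mouse 3 (-0.55, adjusted p = 0.0651) and by the methods' t-test (adjusted p = 0.0756). Without treated mouse 2 the treated muscle differed by 0.24 from untreated mdx (adjusted p = 0.216) and by -0.71 from C57 (adjusted p = 0.00536).

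Cry1 was dim, with signals of 6.26, 6.33 and 6.06 in C57, 5.89, 5.90, 5.91 and 5.90 in untreated mdx, and 6.06, 6.33, 5.91 and 6.26 in treated mdx mice. The untreated mdx mice stood within 0.02 of each other, a range smaller than that of all but 0.179% of tested probe sets, and just below the lowest C57 mouse. Neither the difference of -0.32 between mdx and C57 (adjusted p = 0.0943) nor that of 0.24 between treated and untreated mdx (95% confidence interval 0.01 to 0.47, adjusted p = 0.138) passed the test. Treated and C57 mice overlapped, with a difference of -0.08 (95% confidence interval -0.32 to 0.17, adjusted p = 0.638). Leaving out treated mouse 2 gave 0.18 against untreated mdx (adjusted p = 0.204) and -0.14 against C57 (adjusted p = 0.324).

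Gm129 (Ciart), a repressor whose mRNA cycles strongly in several tissues, showed the largest difference of the 8 genes. The brighter of its probe sets, placed by the deposited table at chr10:127986956-127987628, read 9.69, 9.53 and 9.66 in C57, 5.92, 6.03, 6.39 and 7.04 in untreated mdx, and 6.93, 6.97, 6.99 and 5.95 in treated mdx mice. The other, placed at chr3:95682426-95686151 on the chromosome of the gene, read 9.28, 9.20 and 9.47, then 5.49, 5.83, 6.14 and 6.87, then 6.71, 6.81, 7.03 and 5.99. Both give the C57 mice as tightly grouped and far above every mdx mouse, and both put treated mouse 4 within the lower part of the untreated range. The table cites the same transcript for both, so they are not independent measurements, and it names no genome build for these positions.

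The brighter probe set fell by 3.28 in mdx (SE 0.28, adjusted p = 2.54e-05), a 9.72-fold lower signal, and the other fell by 3.23 (adjusted p = 3.39e-05), 9.41-fold. Treated minus untreated mdx was 0.36 (95% confidence interval -0.21 to 0.94, adjusted p = 0.365) and 0.55 (-0.04 to 1.15, adjusted p = 0.187) in the 2 probe sets. For the brighter one this was 0.28 without treated mouse 2 (adjusted p = 0.479) and 0.62 without treated mouse 4 (adjusted p = 0.123), and for the other 0.49 without treated mouse 2 (adjusted p = 0.23). Gm129 remained 7.55-fold and 6.42-fold below C57 in treated muscle (adjusted p = 9.96e-05 and 0.000183), and without treated mouse 2 those differences were -3.00 and -2.74 on the log2 scale (adjusted p = 0.000137 and 0.000295).

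Of the 2 basic helix-loop-helix repressors, Bhlhe41 passed the test in mdx and Bhlhe40 did not. Bhlhe41 had signals of 9.00, 8.90 and 8.76 in C57, 7.82, 8.30, 8.34 and 8.24 in untreated mdx, and 8.48, 8.27, 8.34 and 8.33 in treated mdx mice. C57 mice were above all mdx mice, and the treated mice lay within or just above the untreated range. Bhlhe41 fell by 0.71 in mdx (SE 0.13, adjusted p = 0.00379, but 0.0693 by the methods' t-test). Treated minus untreated mdx was 0.18 (95% confidence interval -0.08 to 0.44, adjusted p = 0.32), and treated minus C57 was -0.53 (adjusted p = 0.0122). Without treated mouse 2 they were 0.21 (adjusted p = 0.232) and -0.50 (adjusted p = 0.0166).

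Bhlhe40, which is induced by many signals besides the clock, had signals of 9.27, 9.02 and 8.86 in C57, 8.88, 8.81, 8.87 and 9.17 in untreated mdx, and 9.12, 8.65, 9.29 and 9.36 in treated mdx mice. All 3 groups overlapped. The differences were -0.12 for mdx minus C57 (95% confidence interval -0.48 to 0.25, adjusted p = 0.741) and 0.17 for treated minus untreated mdx (-0.17 to 0.51, adjusted p = 0.473). Treated minus C57 was 0.06 (-0.31 to 0.42, adjusted p = 0.832), and its sign turned without C57 mouse 3 (-0.04) or without treated mouse 3 (-0.01) or 4 (-0.03). Treated mouse 2 was the lowest of its group, and without it the difference from untreated mdx was 0.32 (adjusted p = 0.0677) and that from C57 0.21 (adjusted p = 0.232).

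**Figure D3:**
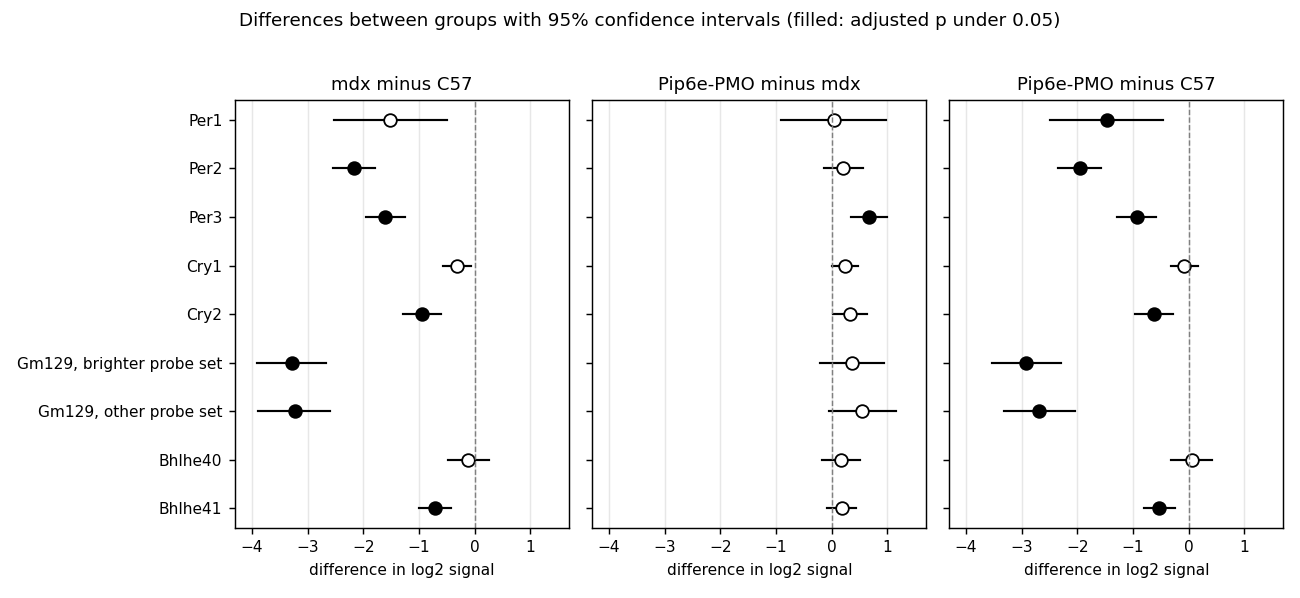
Differences in log2 signal between the groups for the 9 probe sets, with 95% confidence intervals from limma (points filled where the adjusted p is under 0.05). In mdx minus C57, 6 of 9 points are filled, in Pip6e-PMO minus mdx only Per3, and in Pip6e-PMO minus C57 7 of 9.

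By group means, 8 of the 9 probe sets were highest in C57, then in treated and then in untreated mdx muscle. The exception was Bhlhe40, which was highest in treated muscle. Both Gm129 probe sets are among the 8, and Per1 holds its place by 0.04, which turned to -0.22 without treated mouse 2. The share of all tested probe sets with this order was not counted. The 2 lower neighbours of that order, treated and untreated mdx, differed by the test in Per3 alone.

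Members of a family were then compared within each mouse, which needs no scaling between arrays. Per2 relative to Per3 was lower in mdx than in C57, with a difference of -0.58 on the log2 scale, and Cry1 relative to Cry2 and Bhlhe40 relative to Bhlhe41 were higher by 0.63 and 0.59. In these 3 pairs the mdx and C57 mice did not overlap, and the exact permutation test gave p = 0.0286 for each, two-sided. Treated against untreated mdx mice gave the same p for Per2 relative to Per3, with a difference of -0.46. That is the smallest p the test can give with 3 or 4 mice a group, and after adjustment over 10 tests (5 pairs in 2 comparisons) it was 0.0714, so 0 pairs were called in either comparison. A call would need most of the 10 tests to reach that smallest p. At an unadjusted p under 0.05 the counts were 3 and 1 of 5. The 2 comparisons share the untreated mdx mice. Per1 relative to Per2 or to Per3 differed by 0.66 and 0.09 between mdx and C57, with exact permutation p = 0.257 and 0.943.

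In several members the same mouse stood at the edge of its group. Untreated mdx mouse 4 had the highest signal of its group in 6 of the 8 genes (Per1, Per2, Per3, Cry2, Gm129 and Bhlhe40), as in 24.7% of all tested probe sets. Treated mouse 4 had the lowest signal of its group in 5 genes (Per1, Per2, Per3, Cry2 and Gm129), as in 15.4% of all tested probe sets. The same treated mouse had the highest signals of its group in Arntl (7.70, against 6.72 to 7.22), Npas2 (7.87, against 7.45 to 7.52) and Clock (6.37, against 5.81 to 6.34), which are activators of the loop. It was not the highest in Arntl2 (5.02, inside the range of 4.46 to 5.27), and it was the highest in 24.2% of all tested probe sets. Untreated mouse 4 had the lowest Clock signal of its group (5.13, against 5.74 to 6.19), as in 28.2% of all tested probe sets. It was not the lowest in Npas2 (7.72, inside the range of 7.57 to 8.00), it shared 6.93 in Arntl with mice 1 and 3, and it was the highest in Arntl2 (4.92, against 4.58 to 4.86). Gm129 had a range of 1.12 among untreated mdx mice, larger than that of 98.3% of tested probe sets, but 0.16 among C57 mice.

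**Figure D4:**
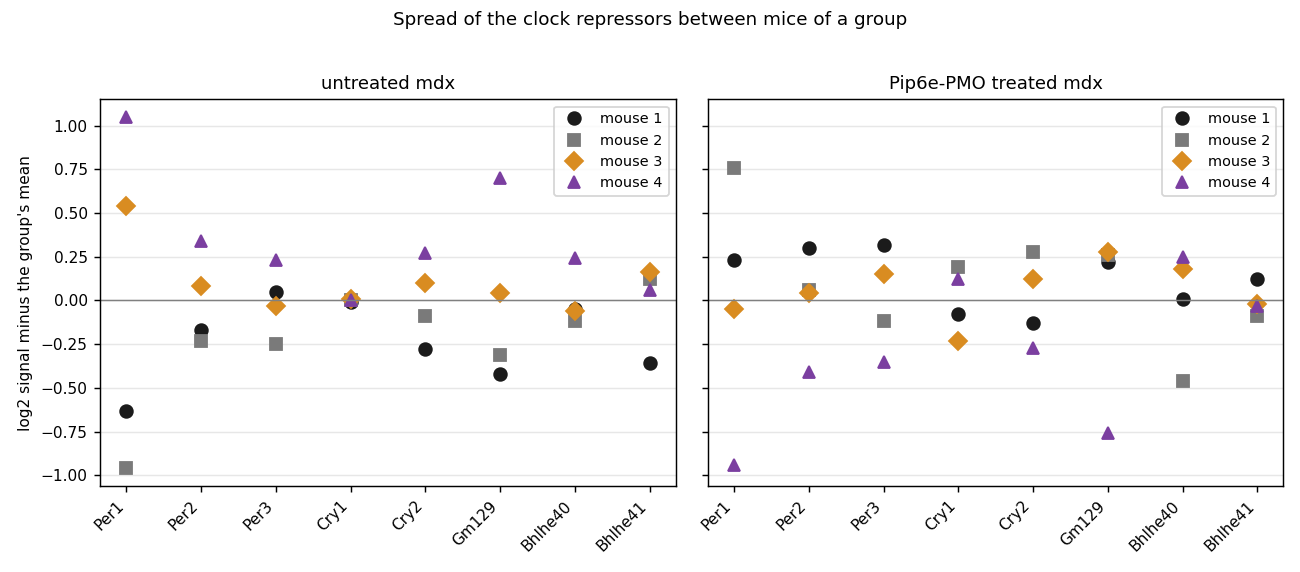
Log2 signal of each mouse minus the mean of its group for the 8 genes (brighter probe set of Gm129), in untreated mdx (left) and Pip6e-PMO treated mdx mice (right). Mouse 4 of the untreated group is highest in 6 genes and mouse 4 of the treated group lowest in 5, and Per1 has the widest spread in both groups.

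The other genes of the clock moved in both directions. Of 28 genes in 3 lists, 25 reached the minimum signal. In mdx minus C57, 2 of them were called higher and 4 lower, against 7.06% and 4.96% of all tested probe sets. Of the 8 tested activators and nuclear receptors, Arntl rose by 1.53 (adjusted p = 0.000451) and Npas2 by 2.79 (adjusted p = 1.91e-07), and 0 fell. Of the 4 tested D-box factors and Nfil3, Dbp fell by 1.68 (adjusted p = 0.000191), Hlf fell by 2.16 (adjusted p = 3.34e-06) and Tef fell by 0.51 (adjusted p = 0.0129), a call lost without C57 mouse 2 or 3 (adjusted p up to 0.0548). Of the 13 tested kinases, ligases and partners of PER and CRY, only Usp2, a deubiquitinase of PER1 and other clock proteins, was called, and it fell by 1.02 (adjusted p = 0.00128). The medians of the 3 lists were -0.04, -1.09 and -0.09, beside -0.01 for all tested probe sets.

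List medians after treatment were 0.28, 0.15 and 0.13 beside 0.02. Of the 25 genes, 6 were called higher and 0 lower, against 7.26% and 3.88% of all tested probe sets. Among those called were the nuclear receptors Rora (0.59, adjusted p = 0.0291), Nr1d1 (0.33, adjusted p = 0.0336) and Nr1d2 (0.83, adjusted p = 0.0186), the AMP kinase subunit Prkaa2 (0.76, adjusted p = 0.00787) and the deacetylase Sirt1 (0.60, adjusted p = 0.0161). The genes with the largest called differences in mdx did not pass here, with 0.43 for Dbp (adjusted p = 0.115), 0.38 for Hlf (adjusted p = 0.0707), 0.22 for Arntl (adjusted p = 0.434) and -0.20 for Npas2 (adjusted p = 0.259). The count was 9 without treated mouse 2, 3 without untreated mouse 3 or 4 and 2 without treated mouse 4. Only Prkaa2 was called whichever mouse was left out (adjusted p up to 0.0324).

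**Figure D5:**
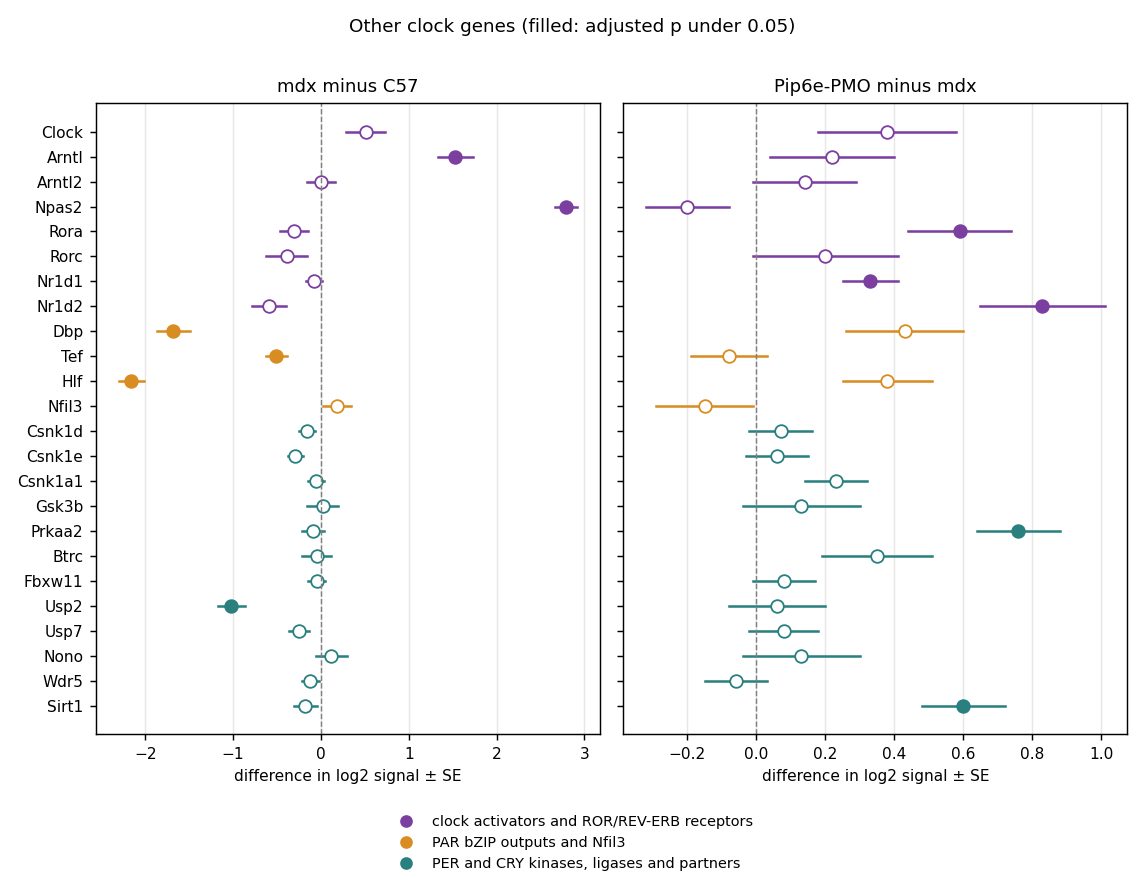
Difference in log2 signal ± SE for 24 of the 25 other clock genes that reached the minimum signal, in mdx minus C57 (left) and Pip6e-PMO minus mdx (right), with different scales in the 2 panels. Points filled where the adjusted p is under 0.05 are Arntl, Npas2, Dbp, Tef, Hlf and Usp2 on the left, and Rora, Nr1d1, Nr1d2, Prkaa2 and Sirt1, all above 0, on the right.

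By the size of their differences over the 11 mice, the genes nearest to Per2 and Per3 were other clock genes, Hlf and Dbp. No gene of the 3 clock lists was among those nearest to Cry2, Gm129 or Bhlhe41. Likeness was the root mean square difference between log2 signals, each taken relative to its own mean over the mice, so a smaller value is closer. For Per2 the nearest were Hlf (0.167), Cntfr (0.303) and Frzb (0.312), and for Per3 Dbp (0.238), Celsr2 (0.260) and A330023F24Rik (0.263). Gm129 lay nearest to Ppp1r1a (0.416), Dusp26 (0.515) and Per2 (0.515). Cry2 was nearest to Slc6a9 (0.163), Stk35 (0.165) and Adcy1 (0.169), and Bhlhe41 to Hoxa13 (0.106), Abcc4 (0.111) and 2610019F03Rik (0.118). These points share their mice and arrays, and no test was made.

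Other cells and signals moved with the same comparison. Over all tested probe sets, 7.06% were called higher and 4.96% lower in mdx against C57. In treated against untreated mdx these shares were 7.26% and 3.88%. Of 6 macrophage markers 5 rose in mdx. Their summed intensity was 659 to 755 in C57, 1476 to 2362 in untreated and 973 to 1816 in treated mdx mice. In treated against untreated mdx, Mrc1 was called higher (0.49, adjusted p = 0.0377) and Cd68 lower (-1.03, adjusted p = 0.0245). The other macrophage markers were not called in that comparison. Of 5 markers of fibroblasts and matrix 2 rose in mdx (sums of 3457 to 4726, 5020 to 6283 and 5137 to 7945 in C57, untreated and treated mice). Of 5 of regenerating fibres 4 rose in mdx (564 to 745, 933 to 1374 and 618 to 1082 in the same order). Of 3 blood markers 0 passed (7695 to 12197, 8072 to 11331 and 7484 to 8721). None of 4 tested adipocyte markers passed in mdx against C57 (356 to 638 and 258 to 717), and 4 fell in treated against untreated mdx muscle (117 to 341 in treated mice). The adipocyte sums also include Lep, which was not tested. Fast fibre markers summed to 60902 to 62775, 61319 to 63973 and 59466 to 62089. Of the markers in these lists, only Lep did not reach the minimum signal. Of 13 glucocorticoid-responsive genes 2 (Mt1 and Mt2) rose in mdx and Klf15 fell, and of 11 immediate early genes 3 (Junb, Egr1 and Egr2) rose and Nr4a1 fell. Their part in the values of the clock repressors was not tested.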

How the data were processed

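RNA from 3 C57, 4 untreated mdx and 4 treated mdx mice was measured, and the authors made the values with Affymetrix Expression Console, per the labels and the study's methods, by RMA-Sketch, which corrects the background, normalizes quantiles to a sketch of the arrays and summarizes probes by median polish. The deposited intensities are linear, and their log2 values lie on whole hundredths. The methods state that those with a mean signal under 30 in every group were removed, but the deposited table still holds them. In R 4.3.3, limma 3.58.1 (lmFit and eBayes, two-sided) fitted log2 intensities of all 11 mice with 1 mean a group, with Benjamini-Hochberg adjustment over the 14494 probe sets with a mean of at least 30 in some group. A probe set was called at an adjusted p under 0.05. The fit was tested on simulated data. Exact permutation tests went through every split of the mice in Python 3.11.15 with NumPy 2.4.6. Groups came from the sample labels. Housing and the time of day of collection are not given in the sources used here, and the p-values measure the spread between these mice.

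The members and lists were chosen with earlier results of these data known. Named are all members, list genes called in the clock lists, Arntl2, and the 3 probe sets nearest to each member called in mdx. The values of 1 further clock gene and of 1 marker list are not reported here. Genes of the lists with several probe sets are given by the brightest. Alternatives were other signal minimums (none and 100), median centring, repeated quantile normalization, array weights, a robust prior with a trend, a fit of the compared groups alone, the methods' t-test, an unadjusted p under 0.01 with 1.5-fold, averaging the probe sets of 1 gene, linear intensities for the pairs, a replicate block and leaving out each mouse. For 1592 pairs of overlapping RefSeq promoters on opposite strands the sequences were checked to be reverse complements.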

Additional observations from a re-analysis of the deposited data

Results flagged for a closer look

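Treated mouse 4 stood apart from its group in the brighter probe set of Gm129, at 5.95 on the log2 scale against 6.93 to 6.99 in the other 3 treated mice, a gap of 0.942 of the group's range, above the 95% limit of Dixon's test for 4 samples. Of 18 groups of 4 mice tested over the members this was the 1 to pass, and chance alone passes about 1 in 20. The second probe set of Gm129 gave 5.99 for that mouse against 6.71 to 7.03.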

How the results depend on the processing

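The number of member probe sets called lower in mdx was 6 of 9, which is 5 of the 8 genes. It was 5 to 8 under the other settings (6 to 7 with a mouse left out). In treated against untreated mdx the call of Per3 was lost under the adjusted methods' t-test (0 called), and array weights and the t-test at an unadjusted p under 0.05 gave 2. With a mouse left out the count was 0 to 1. In treated against C57 the 7 probe sets called, of 6 genes, became 4 under the adjusted t-test (5 to 7 with a mouse left out). Of the other clock genes, 6 were called in mdx (10 under the unadjusted t-test, 5 to 8 with a mouse left out) and 6 after treatment (0 under the adjusted t-test, 2 to 9 with a mouse left out). The pairs stayed at 0 called under each setting, but a call needs most of the 10 tests to reach the smallest possible p. With a C57 or an untreated mdx mouse left out, 0 was certain, so these counts do not measure stability. Replicate numbers do not pair the mice, since the deviations of same-numbered mice correlated at -0.297 to 0.153 and those of others at -0.409 to 0.425. With the replicate block 0 members were called in treated against untreated mdx, and the call of Per1 in treated against C57 was lost.

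Signs that turned were of small differences that were not called. Per1 in treated against untreated mdx was -0.21 with array weights (-0.29 to 0.39 with a mouse left out), and Bhlhe40 in treated against C57 was -0.03 with the replicate block (-0.04 to 0.21). For Bhlhe40 relative to Bhlhe41 after treatment, repeated quantile normalization gave 0.05 and linear intensities 0.03 (-0.10 to 0.12). With a mouse left out, Per1 relative to Per2 after treatment ran from -0.42 to 0.06, Per1 relative to Per3 in mdx from -0.19 to 0.33, and Cry1 relative to Cry2 after treatment from -0.22 to 0.03. The cause was not tested. With 3 or 4 arrays a group, small differences of dim probe sets such as Cry1, which a minimum signal of 100 leaves out, could not be resolved.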

Other observations

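Untreated mdx mice 3 and 4, which had the highest signals of Per1 in their group, also held the highest 2 signals of the group in Per2, Cry2 and Gm129, and thus in 4 of the 8 members. The same was true of 19.8% of all tested probe sets, of 7 of 11 immediate early genes and of 5 of 13 glucocorticoid-responsive genes. Among them were Ddit4, a stress and glucocorticoid target (8.31 and 8.12 in mice 3 and 4, 6.93 and 6.58 in mice 1 and 2), Cebpd (6.81 and 6.71, against 5.69 and 5.80) and Junb (7.21 and 7.06, against 6.45 and 6.29). These genes and mice were singled out after their values were seen, and no test was made.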
